A study of Mus musculus with 24 samples.

Results

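The genes described here are 35 mouse genes of neurons, of the presynaptic terminal and of cholinergic motor neurons, taken from a list of names and followed through 15564 annotated genes with reads in the series. By role they fall into 13 genes of the synaptic vesicle and transmitter release, 11 of axon growth, the cytoskeleton and neuronal RNA binding, 3 of acetylcholine synthesis and transport, 5 motor neuron transcription factors, and 3 motor neuron peptides or surface markers. The questions were how much of a motor neuron's gene set NSC34 RNA held, and whether growth beside muscle cells changed it.

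The series measured RNA of 2 mouse lines of wild-type genotype. C2C12 is a myoblast line that can form muscle cells in culture, and NSC34 is a hybrid line made by fusing neuroblastoma cells with spinal cord cells rich in motor neurons, labelled by the submitters as motor neuron. Each line was kept alone (control) or grown beside the other line (co-culture, 3 days, per the series design), with 6 libraries in each of the 4 groups. Total RNA was taken with Trizol and read on a Nanopore MinION, which reads long stretches of a transcript. The labels do not say whether libraries of a group came from separate cultures, so p-values measure only the spread between these libraries, which may be technical. Nor do they say how cells of each line were recovered from the shared culture. In such bulk RNA, fewer cells of a type and less RNA per cell cannot be told apart.

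A motor neuron makes acetylcholine with choline acetyltransferase, loads it into vesicles with the vesicular acetylcholine transporter, and takes choline back up with a high-affinity transporter. Vesicles fuse when SNARE proteins on vesicle and membrane pair after calcium binds a synaptotagmin, and complexins, synapsins and Rab3 proteins tune that step. Motor neurons are specified by LIM homeodomain factors and Mnx1, while stathmins, Gap43 and microtubule-associated proteins belong to the growing axon of most neurons.

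Depth differed greatly between the lines and bounds what could be seen. C2C12 libraries held 121154 to 658075 reads and NSC34 libraries 88 to 30314, with medians of 219264 and 4042.5. Pooled, C2C12 gave 1497275 control and 1812360 co-culture reads, whereas NSC34 gave 15858 and 55007, of which co-culture library 2 alone held 30314. Levels are in CPM, the reads of a gene scaled to the total of all reads of its library or pool, not divided by transcript length, so levels are compared between samples and not between genes. A gene with no read was given an upper limit of 3 reads of the pool. That limit was 42.3 CPM in all NSC34 reads (189 CPM in controls and 54.5 CPM in co-culture) and 0.906 CPM in all C2C12 reads. Intervals are exact Clopper-Pearson 95% intervals, and these and the limits cover counting error only. Line, count table and depth move together here and cannot be told apart in a comparison between the lines.

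Reads of 26 members were found in at least 1 line. They were found in both lines for 11 members, in C2C12 alone for 9, and in NSC34 alone for 6. By line, 20 members had reads in C2C12 and 17 in NSC34. Over all 15564 annotated genes with reads, 15177 had reads in C2C12 and 7504 in NSC34. These counts are not corrected for the difference in depth. The other 9 members (Nefh, Slc18a3, Slc5a7, Mnx1, Lhx3, Lhx4, Calca, Calcb and Chodl) had no read in either line. In NSC34 the 35 genes took 156 reads, 86 of them from Uchl1, and just 2 members had 10 or more reads. In C2C12 they took 854 reads, and 9 members had 10 or more. Of the 9 members read in C2C12 alone, 8 lay below the NSC34 limit, so their absence from NSC34 was not detectable at this depth. Stmn2 was the exception.

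**Figure D1:**
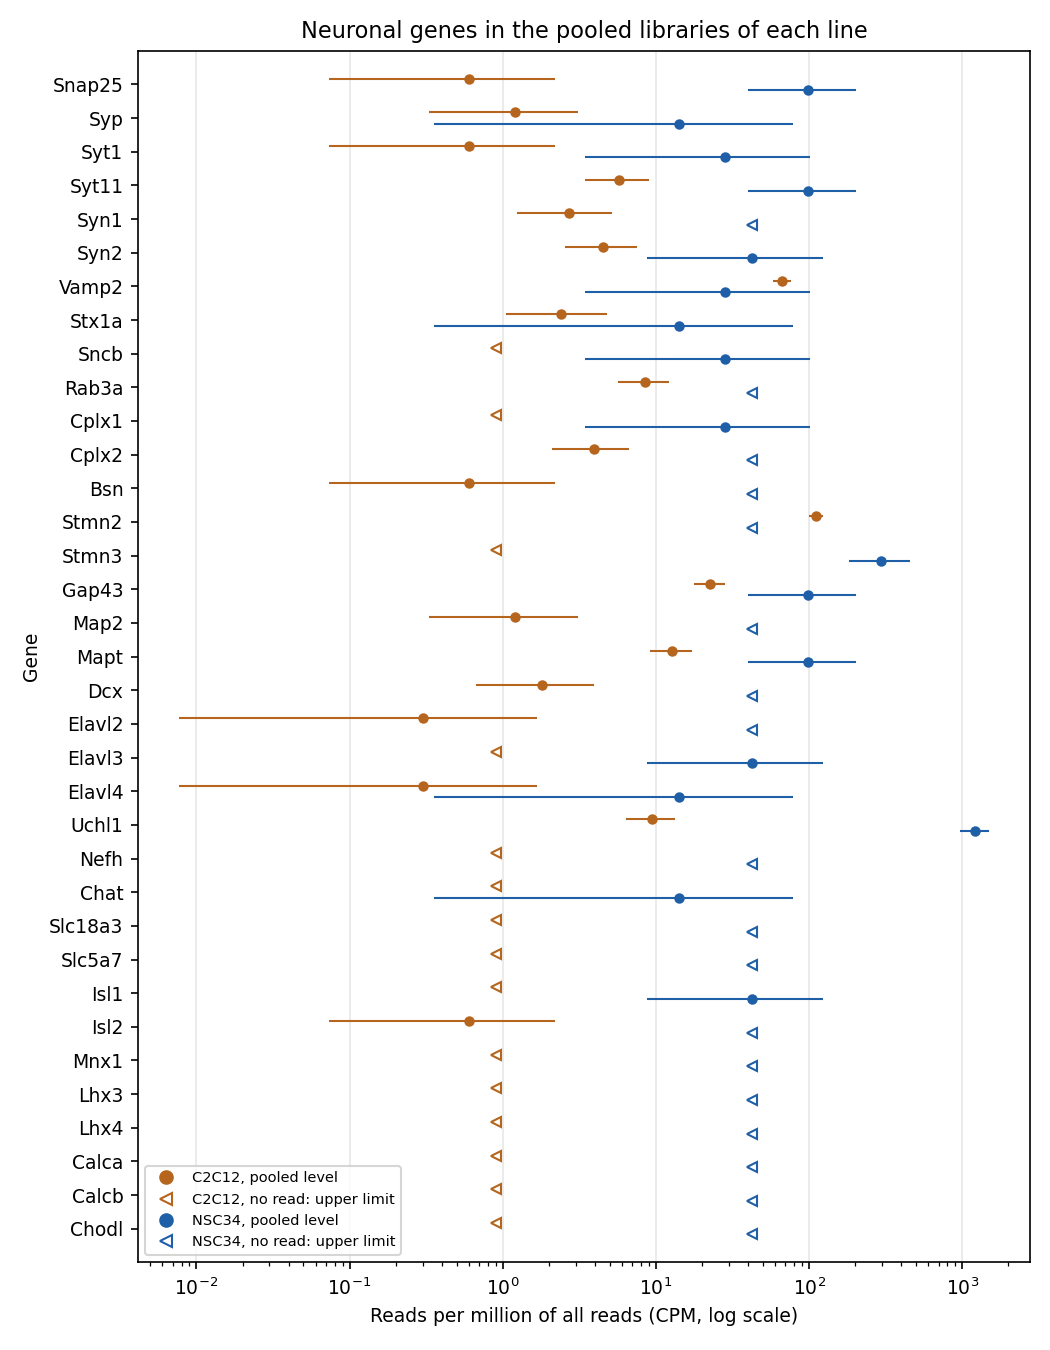
Pooled level of each of the 35 genes in all libraries of each line, in CPM on a log axis, with exact 95% intervals. Open triangles are upper limits where no read was found, at 42.3 CPM in NSC34 and 0.906 CPM in C2C12. Uchl1 and Stmn3 stand to the right in NSC34, Stmn2 and Vamp2 stand out in C2C12, and most of the motor neuron genes at the bottom are limits.

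Among the genes of vesicle release, 9 of 13 had reads in NSC34, 27 reads in all, and 11 of 13 had reads in each C2C12 group. Their summed level was 441 CPM in NSC34 controls and 364 CPM in NSC34 co-culture, against 103 and 93.2 CPM in C2C12. Snap25, the neuronal SNARE of the plasma membrane, had 7 NSC34 reads (98.8 CPM, interval 39.7 to 204) and 2 C2C12 reads (0.604 CPM, 0.0732 to 2.18). Its library values ran from 0 through a median of 0 to 447 CPM in NSC34 controls, and from 0 through 0 to 356 CPM in NSC34 co-culture. Most NSC34 libraries therefore showed no Snap25 read; a single read was worth 33.0 CPM in the deepest NSC34 library and 11364 CPM in the shallowest.

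Syt11, a synaptotagmin that does not bind calcium, had 7 reads in NSC34 and 19 in C2C12. It ran from 4.44 through 8.69 to 23.8 CPM in C2C12 controls and from 0 through 2.78 to 6.97 CPM in C2C12 co-culture. In NSC34 it ran from 0 through 0 to 249 CPM in controls and from 0 through 33.0 to 209 CPM in co-culture. The ranges overlapped between states in both lines and between lines. Vamp2, the vesicle SNARE, stood at 66.8 CPM in both C2C12 states (221 reads in all), while NSC34 had 2 reads, both in co-culture (36.4 CPM, 4.40 to 131). That interval and the NSC34 control limit of 189 CPM both include the C2C12 level.

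The calcium sensor Syt1, the vesicle protein Syp, the SNARE Stx1a and the vesicle-tethering Syn2 had 1 to 3 reads each in NSC34, and so did Sncb and Cplx1, which had none in C2C12. The NSC34 reads of Syn2 all lay on non-coding transcripts of that gene. Syn1, Rab3a, Cplx2 and the active-zone scaffold Bsn had reads in C2C12 alone, 9, 28, 13 and 2 in number. For these 4, C2C12 levels of 0.604 to 8.46 CPM stood below the NSC34 limit of 42.3 CPM.

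The axon and cytoskeleton genes held most of the NSC34 signal, with 125 of the 156 reads. Uchl1, a ubiquitin hydrolase abundant in neurons (chr5:66676091-66687234, plus strand, GRCm38), had 14 NSC34 reads without and 72 with co-culture, or 883 CPM (483 to 1481) and 1309 CPM (1024 to 1648). Library values were 0, 867 and 3650 CPM (lowest, median, highest) in NSC34 controls, and 733, 1438 and 1781 CPM in NSC34 co-culture. C2C12 libraries ran from 0 through 6.35 to 18.8 CPM in controls and from 8.54 through 11.1 to 13.9 CPM in co-culture. The single NSC34 library without a Uchl1 read was control 1, which held 88 reads in all. Every other NSC34 library lay above every C2C12 library.

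Stmn2 and Stmn3, both neuronal stathmins that destabilise microtubules in growing axons, were each read in 1 line. Stmn3 (chr2:181306459-181314500, minus strand) had 21 reads in NSC34, 315 CPM (102 to 736) in controls and 291 CPM (166 to 472) in co-culture. Its library values ran from 0 through 223 to 499 CPM in controls and from 0 through 248 to 523 CPM in co-culture. No read of it was found among 3309635 C2C12 reads, so from the lower end of these intervals its pooled level was at least 51.1-fold higher in NSC34 controls than in C2C12 controls, and at least 100.4-fold higher in co-culture (68.9-fold without co-culture library 2). Stmn2 (chr3:8509360-8561606, plus strand) had 369 reads in C2C12 and none in NSC34. It ran from 52.1 through 125 to 165 CPM in C2C12 controls and from 72.6 through 112 to 117 CPM in C2C12 co-culture. Taken the same way, its pooled level was at least 1.69-fold lower in co-cultured NSC34 than in co-cultured C2C12. Without NSC34 co-culture library 2 the NSC34 limit was 121 CPM, above the C2C12 level of 106 CPM, and no difference was detectable. In controls the C2C12 level of 118 CPM lay below the NSC34 limit of 189 CPM, so a difference was not detectable there.

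Whether reads of these close relatives could be told apart bears on that contrast, so a stretch of each coding sequence is shown. Over the aligned coding bases of Stmn2-201 and Stmn3-201 in GRCm38, 73.6% were identical and 142 differed, and the longest run of identical bases was 21. The lines below give 120 coding bases of each, positions 261 to 380 and 264 to 383 from the start codon, read 5′ to 3′ on the coding strand, with the 20 bases that differ in capitals.
Stmn2: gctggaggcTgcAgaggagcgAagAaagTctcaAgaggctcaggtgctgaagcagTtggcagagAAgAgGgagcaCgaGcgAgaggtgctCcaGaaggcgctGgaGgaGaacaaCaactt
Stmn3: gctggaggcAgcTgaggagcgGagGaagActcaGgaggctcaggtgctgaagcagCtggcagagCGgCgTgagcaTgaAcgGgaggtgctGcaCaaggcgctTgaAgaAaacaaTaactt

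The other axon genes were thinner. Gap43, a growth cone protein, had 7 reads in NSC34 and 75 in C2C12. It ran from 9.38 through 26.2 to 32.5 CPM in C2C12 controls and from 7.46 through 20.5 to 37.0 CPM in C2C12 co-culture, and in NSC34 from 0 through 0 to 433 CPM and from 0 through 49.5 to 331 CPM. Its 2 control reads fell in 1 NSC34 library.

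Mapt, which encodes tau, had 7 NSC34 reads and 42 C2C12 reads. It ran from 0 through 13.4 to 24.8 CPM in C2C12 controls and from 6.60 through 12.5 to 22.8 CPM in C2C12 co-culture. In NSC34 it ran from 0 through 0 to 249 CPM in controls and from 0 through 0 to 165 CPM in co-culture, and all 5 co-culture reads came from library 2. The neuronal RNA-binding gene Elavl3 had 3 NSC34 reads, with highest library values of 245 CPM in controls and 105 CPM in co-culture, and no C2C12 read. Elavl4 had 1 read in each line, and Map2, Dcx and Elavl2 had 4, 6 and 1 in C2C12 alone.

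**Figure D2:**
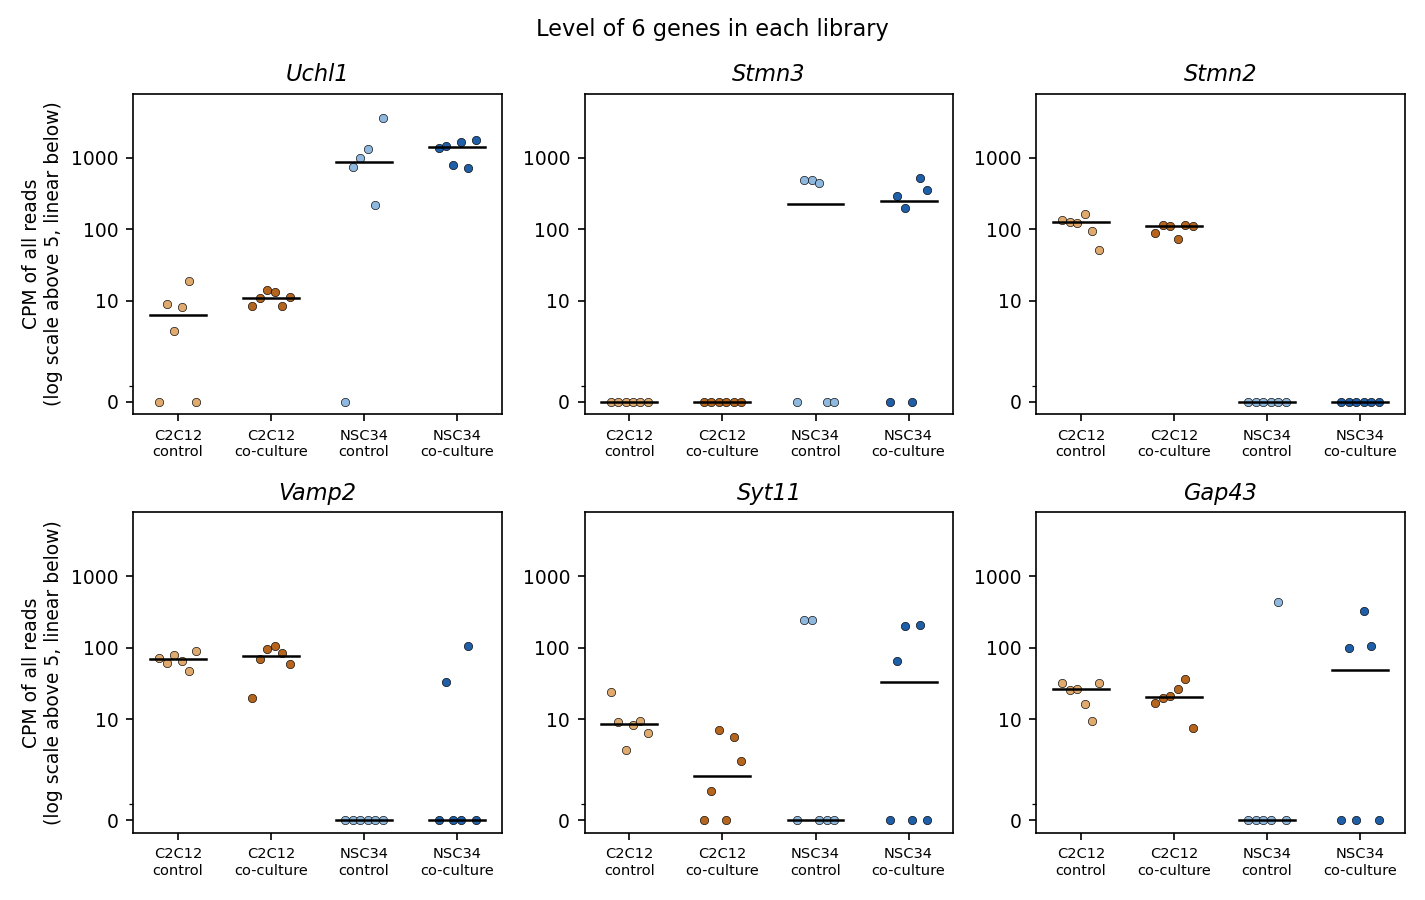
Level of 6 genes in each library (points) with the group median (line), in CPM, on an axis that is logarithmic above 5 and linear below. Uchl1 lies between 216 and 3650 CPM in 11 of 12 NSC34 libraries, Stmn3 has no C2C12 read and Stmn2 no NSC34 read, and Vamp2, Syt11 and Gap43 have many NSC34 libraries at 0.

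The genes that define a cholinergic motor neuron were near the limit of detection. A set of 12 members held those for acetylcholine handling, the motor neuron transcription factors, the peptides and surface marker, and Nefh. Together they took 4 of 70865 NSC34 reads, 56.4 CPM. Isl1, an early LIM homeodomain factor of motor neurons, had 3 of them: 1 in controls and 2 in co-culture, with a highest library value of 249 CPM in controls and 199.8 CPM in co-culture and a median of 0 in both. Isl1 is also made by sensory and sympathetic neurons. Chat, choline acetyltransferase (chr14:32408203-32465989, minus strand), had 1 read, in co-culture (18.2 CPM, 0.460 to 101). Slc18a3, the vesicular acetylcholine transporter, lies within the span of Chat (chr14:32462438-32464850) and had none, nor had Slc5a7, the choline transporter. Mnx1, Lhx3, Lhx4, Calca, Calcb and Chodl had no read in NSC34, and neither had the heavy neurofilament gene Nefh. In C2C12 the same 12 genes took 2 reads, both of Isl2 in controls. NSC34 reads were thus found for 2 of these 12 genes, Isl1 and Chat, and each of the others may lie at up to 42.3 CPM.

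The level summed over all 35 genes was above every C2C12 library in 11 of 12 NSC34 libraries. The sum was 2081 CPM in NSC34 controls and 2236 CPM in NSC34 co-culture, against 270 and 248 CPM in C2C12. NSC34 libraries ran from 0 through 1975 to 3650 CPM in controls and from 1392 through 1884 to 2606 CPM in co-culture, while C2C12 libraries ran from 228 through 273 to 342 CPM and from 157 through 261 to 314 CPM. The 2 states overlapped within each line, and only NSC34 control 1, at 0, lay below the C2C12 libraries. Leaving out Uchl1, the sums were 1198 and 927 CPM in NSC34 and 262 and 237 CPM in C2C12. Library values then ran from 0 through 937 to 1746 CPM in NSC34 controls and from 0 through 756 to 1122 CPM in NSC34 co-culture, and in C2C12 from 225 to 342 CPM and from 148 to 299.6 CPM. Of the 12 NSC34 libraries, 8 then lay above every C2C12 library and 3 had no read at all of the other members. Leaving out Stmn2 and Vamp2 took C2C12 to 86.2 and 74.5 CPM and NSC34 to 2081 and 2200 CPM.

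**Figure D3:**
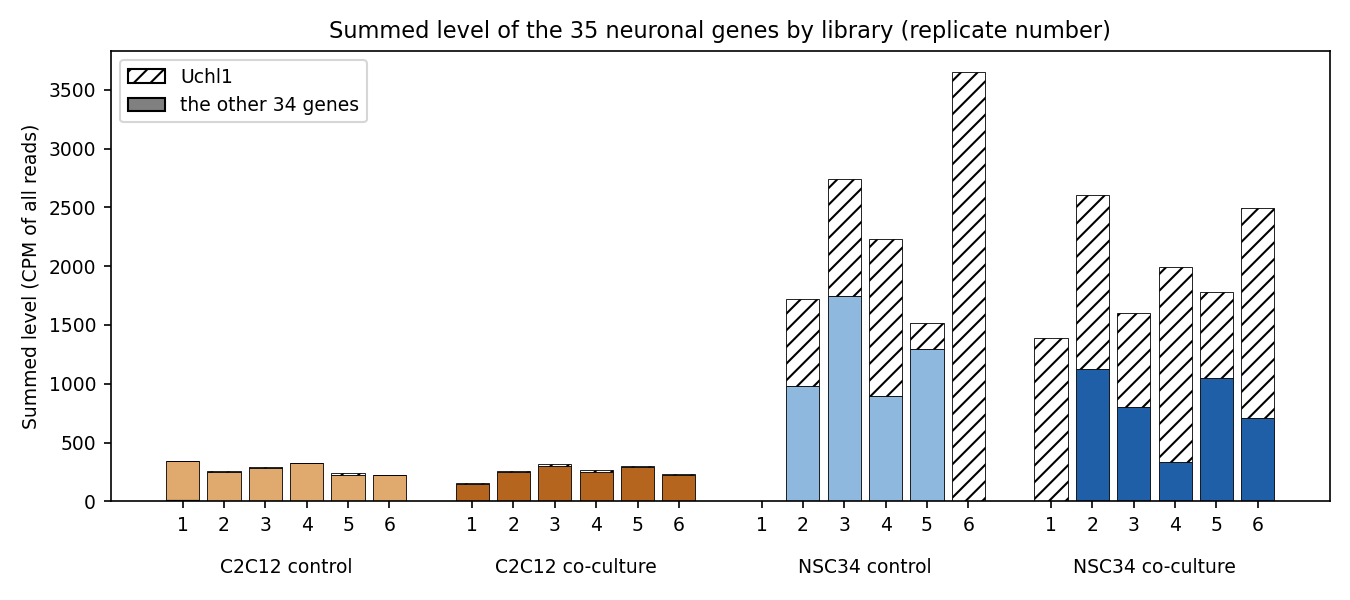
Summed level of the 35 genes in each library, in CPM, with the part from Uchl1 hatched. C2C12 libraries lie between 157 and 342 CPM, 11 of 12 NSC34 libraries lie between 1392 and 3650 CPM, and NSC34 control 1 (88 reads in all) has none.

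The lines were then compared with edgeR's quasi-likelihood test in 1 fit of all 24 libraries scaled by their totals, with Benjamini-Hochberg adjustment over the 10241 genes of at least 10 reads. Of the 35 members, 10 had that many reads, so the counts leave most members untested. Stmn3 reached that number through its NSC34 reads alone, 8 members through C2C12 alone, and Uchl1 in each line, so counts and medians over the 10 describe only the genes that passed this minimum. In controls 2.28% of all genes tested passed the adjusted threshold of 0.05 (1.32% higher in NSC34 and 0.967% lower). Among the 10 members, Uchl1 and Stmn3 were higher in NSC34 and none was lower. Uchl1 differed by 6.68 ± 0.68 on the log2 scale (SE derived from the F statistic, adjusted p = 3.33e-12, edgeR), and the adjusted p of Stmn3 was 1.95e-06. The median log2 difference of the 10 members was 2.73, beside -2.98 over all genes tested, and 0.76 beside -3.09 with TMM scaling. With DESeq2 it was 0.78 beside -0.53. Over the 1328 genes kept by edgeR's filterByExpr, which left 2 members, the median of all genes was -0.16. The gap between the 2 medians thus depends on the setting. The members' median fell to 0.059 without NSC34 control 3 and to 0.098 without control 5.

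In co-culture 9.02% of genes passed (5.2% higher and 3.82% lower in NSC34), and 5 of the 10 members did. Higher in NSC34 were Uchl1, by 6.80 ± 0.36 on the log2 scale (adjusted p = 2.06e-26, edgeR), Stmn3 (2.67e-12), Syt11, by 4.67 ± 0.97 (0.000288), and Mapt, by 2.64 ± 0.83 (0.0300). Stmn2 was lower (adjusted p = 0.0155, edgeR). The median log2 difference of the 10 members was 2.33, beside -0.72 over all genes tested. Both medians moved with the setting, to -1.52 and -2.61 without NSC34 co-culture library 2 and to 0.97 and -1.90 with TMM. Gap43 gave 2.03 ± 0.78 (adjusted p = 0.0993, edgeR), and its sign turned with DESeq2's scaling, to -0.06.

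Several of these calls hung on scaling or on 1 library. Without NSC34 co-culture library 2 the Mapt estimate turned to -4.04 and was not called, and Stmn2 was not called either (adjusted p = 0.264). With TMM scaling Mapt was not called in co-culture (adjusted p = 0.246), and Stmn2 and Vamp2 were called lower in NSC34 controls (0.00338 and 0.0374). Vamp2 was also called lower in co-culture with TMM, TMMwsp and DESeq2 (adjusted p = 0.0289, 0.0271 and 0.00303), against 0.646 with library totals (edgeR). TMM also moved the split of all genes from 135 higher and 99 lower to 52 and 1310 in controls, and from 533 and 391 to 144 and 1898 in co-culture. Uchl1 and Stmn3 passed in both states in all 24 fits that left out 1 library, as Syt11 did in co-culture. These fits share most of their reads, so they are not independent tests. In each of them Stmn3 met the minimum through NSC34 reads alone.

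In NSC34 no neuronal gene passed the test of co-culture, and only 2 members could be tested. In the fit of the 12 NSC34 libraries (edgeR, library totals), 0.541% of 1109 genes passed (0.271% higher and 0.271% lower). Uchl1 gave 0.46 on the log2 scale (95% interval -0.46 to 1.38, adjusted p = 0.897) and Stmn3 gave -0.15 (-1.70 to 1.40, adjusted p = 0.982), the latter turning to 0.16 with TMM. Neither passed with DESeq2, and neither had an unadjusted p under the threshold, as 86 of the 1109 genes did. The intervals still allow changes of more than 1 log2 unit upward in both genes. Of the motor neuron and cholinergic members, 1 read was found in 15858 control reads and 3 in 55007 co-culture reads, or 63.1 and 54.5 CPM.

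In C2C12 the question was whether muscle cells grown beside NSC34 gained neuronal RNA. In the fit of the 12 C2C12 libraries (edgeR, TMM), 0.574% of 10108 genes passed (0.317% higher and 0.257% lower), and none of the 9 members tested did. Stmn2 gave -0.06 on the log2 scale (95% interval -0.46 to 0.35), Vamp2 0.09 (-0.41 to 0.59), Gap43 -0.06 (-0.78 to 0.67), Mapt 0.19 (-0.76 to 1.14) and Uchl1 0.48 (-0.61 to 1.58). For each of these except Uchl1 the sign changed when 1 library was left out. Syt11 gave -1.53 (-2.91 to -0.15), with an unadjusted p of 0.0343 and an adjusted p of 0.508 (edgeR), and 895 of all genes tested had an unadjusted p under 0.05. The median over the 9 members was -0.03, beside 0.01 over all genes tested. Stmn3, with 16 reads in co-cultured NSC34, had none in 1812360 reads of co-cultured C2C12, which allows up to 1.66 CPM there.

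**Figure D4:**
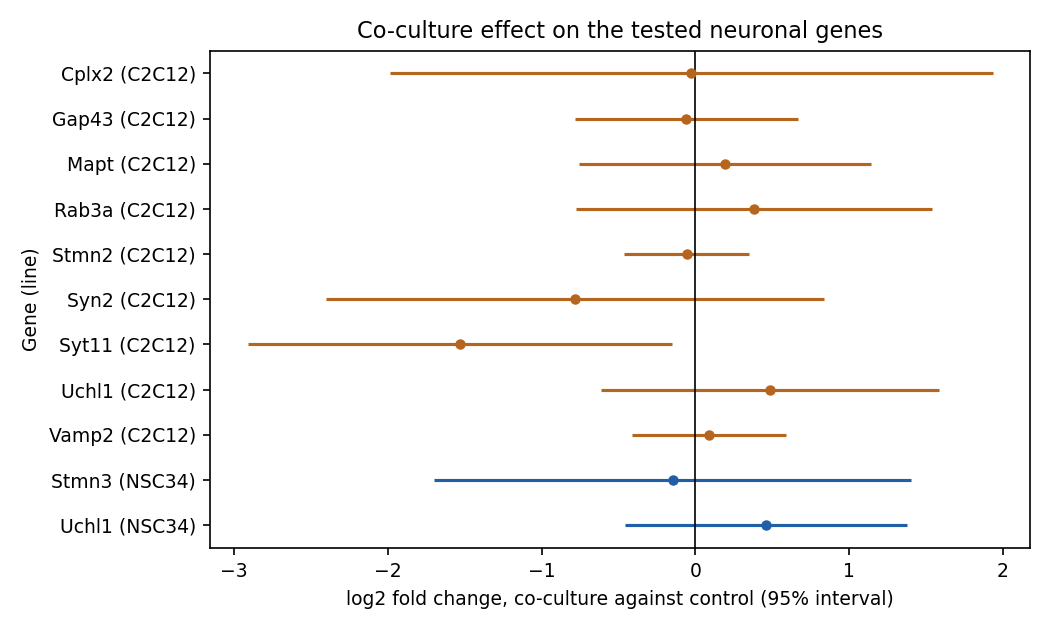
Effect of co-culture on the tested genes, as the log2 fold change of co-culture against control with its 95% interval, for 9 genes in C2C12 (brown) and 2 in NSC34 (blue). Every interval but that of Syt11 in C2C12 spans 0, and the shortest is that of Stmn2.

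Whether co-culture acted differently on each line was tested as an interaction in the fit of all 24 libraries. None of the 10 members passed, and none of the 10241 genes did (edgeR, 0% called), with 307 genes under an unadjusted p of 0.05 and 25 genes called by DESeq2. For Uchl1 the interaction was 0.12 ± 0.96 on the log2 scale (SE).

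Lists of related genes were read the same way. Their counts of called genes between the lines stand beside the shares over all genes tested. These shares were 1.32% higher and 0.967% lower in NSC34 controls, and 5.2% and 3.82% in co-culture. Of 25 further neuronal cytoskeleton genes, 19 were tested between the lines: 1 was higher in NSC34 controls and none lower, and 6 were higher and 3 lower in NSC34 co-culture. Prph, the peripherin intermediate filament of peripheral neurons, was higher in both states, with 25 NSC34 reads and 1 C2C12 read (adjusted p = 2.58e-08 and 8.79e-15, edgeR). It met the 10-read minimum through its NSC34 reads alone. Stmn1, Tubb3 and Map1b were among the 6 in co-culture, by 3.87, 2.87 and 1.74 on the log2 scale. With Prph they are the 4 genes of the list with the most NSC34 reads, and the 3 lower genes are not named. Of 35 exocytosis genes used by many cell types, 25 were tested, none passed in controls, and 1 was higher and 1 lower in co-culture. Their summed level was 694 and 891 CPM in NSC34 and 1005 and 962 CPM in C2C12, within overlapping library ranges.

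Of 9 genes for acetylcholine breakdown and supply, 5 were tested and 1 passed, in co-culture: Acly, which makes cytosolic acetyl-CoA in every cell, was higher by 2.25 ± 0.28 on the log2 scale (adjusted p = 1.35e-09, edgeR). Ache, which breaks acetylcholine down, had 1 read in NSC34 and 2 in C2C12. Among 19 other motor neuron genes, 6 were tested, 1 was lower in NSC34 in each state (Spp1, named here after its values were seen) and none was higher. NSC34 had 7 reads on 4 of these genes, 3 of them of Ret, a receptor for glial-derived growth factors.

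Genes of noradrenergic and neuroblastoma cells also had reads in NSC34. The 16 genes of that list took 88 NSC34 reads (1703 CPM in controls and 1109 CPM in co-culture) and 100 C2C12 reads (31.4 and 29.2 CPM). Of 7 tested, 2 were higher in NSC34 in both states and none was lower, beside 1.32% of all genes higher in controls and 5.2% in co-culture. Of the 7 estimates, 4 lay above 0 and 3 below in each state. Chgb, a granin of secretory granules, had 51 of the 88 NSC34 reads and none in C2C12 (adjusted p = 4.08e-15 in controls and 7.21e-20 in co-culture, edgeR). Hand2, a transcription factor of sympathetic neurons, had 13 and none (0.00841 and 3.13e-09). Both met the 10-read minimum through NSC34 reads alone, so these p-values describe only genes that passed it. Phox2a, which also acts in the specification of sympathetic neurons, had 3 NSC34 reads. The part of these genes in the neuronal values above was not tested.

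Markers of other cells bear on how far each culture held the other line. Without Chrna1, 29 skeletal muscle markers took 48236 and 51090 CPM in C2C12, while NSC34 controls had 2 reads of them (126 CPM) and NSC34 co-culture 6 (109 CPM). Library values of that sum ran from 0 to 245 CPM in NSC34 controls and from 0 to 331 CPM in NSC34 co-culture. Chrna1 itself, a subunit of the muscle acetylcholine receptor, had 3 of 15858 NSC34 control reads and 17 of 55007 NSC34 co-culture reads. With Chrna1 included, the sum was 315 CPM (102 to 736) in NSC34 controls and 418 CPM (265 to 627) in NSC34 co-culture. Chrna1 thus held most of the muscle marker reads in NSC34. Chrna1 was the only muscle marker with enough reads for the NSC34 fit. There it gave 0.69 on the log2 scale for co-culture against control and did not pass. All 30 muscle markers were tested between the lines, 19 were lower in NSC34 controls and 26 in NSC34 co-culture, and none was higher. Over all genes tested 0.967% and 3.82% were lower. The 29 markers other than Chrna1 had 8 NSC34 reads in all. They met the 10-read minimum essentially through C2C12, where they are high, so their direction was close to fixed in advance. NSC34 had 1 read on 12 markers of other neuron types, 10 on neural progenitor genes and 8 on glial and Schwann cell markers. Between C2C12 states none of the noradrenergic genes tested passed. In co-culture 1 progenitor gene was lower (Nes), 1 further cytoskeleton gene was higher (Map1lc3a), and 1 of 6 other motor neuron genes was higher, by 0.55 ± 0.11 on the log2 scale (adjusted p = 0.00550, edgeR). The last was Spp1, a secreted phosphoprotein made by many cell types, with no NSC34 read. Of the 30 muscle markers 4 were higher (Mb, Ckm, Myog and Tnnt1) and none lower. Over all genes tested in C2C12, 0.317% were higher and 0.257% lower. Of the 30 estimates 25 lay above 0, with a median of 0.24 beside 0.01 over all genes tested. All these were named after their values were seen.

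**Figure D5:**
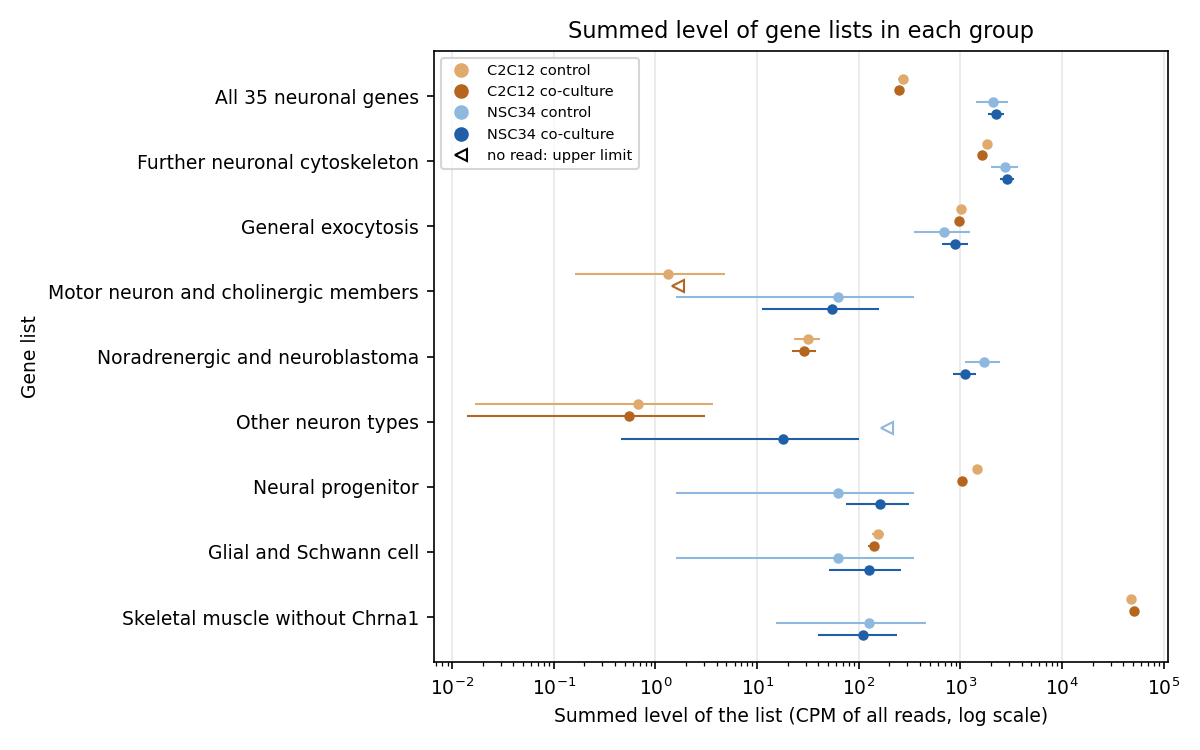
Summed level of gene lists in each group, in CPM on a log axis, with exact 95% intervals, and open triangles for limits where no read was found. Muscle markers without Chrna1 lie at 48236 to 51090 CPM in C2C12 and at 109 to 126 CPM in NSC34, noradrenergic genes lie at 1109 to 1703 CPM in NSC34, and the motor neuron and cholinergic genes lie at 54.5 to 63.1 CPM there. With Chrna1, not drawn, the NSC34 muscle sums were 315 CPM in controls and 418 CPM in co-culture.

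Upstream sequence is shown for the 2 members higher in NSC34 in both states, since REST, a repressor that silences neuronal genes outside neurons, binds such genes through RE1 elements. The lines give the 250 bases before the RefSeq start (GRCm38.p6), 5′ to 3′ on the gene's strand, with CpG dinucleotides in capitals. Uchl1 is at chr5:66675871-66676120 (plus strand) and holds 7 CpG, Stmn3 is at chr2:181314501-181314750 (minus strand) and holds 3, and the median over 32851 entries was 6.
Uchl1: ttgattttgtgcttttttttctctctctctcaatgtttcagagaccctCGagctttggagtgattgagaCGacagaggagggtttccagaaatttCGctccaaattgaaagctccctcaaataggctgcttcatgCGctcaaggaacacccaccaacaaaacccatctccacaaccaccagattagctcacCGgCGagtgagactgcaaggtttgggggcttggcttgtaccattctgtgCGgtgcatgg
Stmn3: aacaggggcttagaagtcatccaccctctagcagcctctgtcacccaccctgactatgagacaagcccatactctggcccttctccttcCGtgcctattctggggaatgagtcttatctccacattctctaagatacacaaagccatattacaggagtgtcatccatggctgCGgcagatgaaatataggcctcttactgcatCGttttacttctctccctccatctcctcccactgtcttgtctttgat
Neither window held an exact copy of either arm of RE1, searched on both strands. Variant copies, or copies outside these 250 bases, would be missed, so the search cannot show that RE1 is absent from these genes. The left arm of RE1, TTCAGCACC, was found in 0.301% of all entries, among them Lhx3 and Syn1, and the right arm in 0.0974%, among them Lhx3. Entries were at hand for 28 of the 35 members.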

How the data were processed

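Transcript counts of 24 libraries were used, 6 in each group, in 1 count table per line as deposited by the authors. These are raw counts of reads per Ensembl transcript, per the file headers and the values. The build is GRCm38, per the submitters' processing notes, while the aligner, counter, annotation and use of strand were not given in the sources used here. Versions were stripped from transcript names, names were matched to a GRCm38 annotation (GENCODE M21), and counts were summed per gene. Matched were 37415 of 37677 C2C12 transcripts and 10374 of 10427 NSC34 transcripts, and the rest held 0.224% and 0.238% of reads. Library depth ran from 88 to 658075 reads, and this sets the precision of each value.

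Tests used edgeR 4.0.16 (glmQLFit, glmQLFTest) in R 4.3.3 on genes with at least 10 reads over the libraries of a fit, with Benjamini-Hochberg adjustment over all of them and a threshold of 0.05. C2C12 was scaled by TMM, and NSC34 and the fit of both lines by library totals. The test was also tested on simulated data. In a first simulation at NSC34 depth, with changed genes drawn from all genes tested, scaling by library totals also called genes that had not been changed. The simulation was then redone with changed genes drawn from outside the 10% most counted, so NSC34 calls may be sensitive to shifts in abundant genes. DESeq2 1.42.0, other scalings and filters, a replicate block and leaving out each library were tried as alternatives. No 2 libraries were identical. In 1 pair of NSC34 controls the counts did not differ beyond sampling noise, at 88 and 822 reads, the lowest of all libraries, where few differences can be detected. Both were kept, and leaving them out gave the same count of 6 called genes in NSC34 co-culture. Counts were made without stated strand, so overlapping genes on opposite strands (Rab3a and Mpv17l2, Syn1 and Araf) cannot be told apart in the bases they share.

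Every one of the 35 members is accounted for. Library values are given for members past the threshold in any comparison and for the 8 with the most NSC34 reads. At most 4 genes of each other list are named by rule, those with the most NSC34 reads. Spp1, Nes, Map1lc3a, Ckm and Myog were named outside this rule, after their values were seen. A gene that this choice would name is not reported here. The members and lists were chosen with earlier results of these data known.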

Additional observations from a re-analysis of the deposited data

Results flagged for a closer look

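In 12 of 32 sets of 6 libraries examined, 1 library lay far above the rest by Dixon's criterion, which chance meets in about 1 in 20 sets. A set in which 1 library has a single read and the others none also meets it, so most of these values are thin.

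In NSC34 controls the far values were 3650 CPM for Uchl1 (next 1340 CPM), 433 CPM for Gap43, 249 CPM for Isl1 and 245 CPM for Elavl3, the last 3 beside 0 in the other libraries. In NSC34 co-culture they were 356 CPM for Snap25 (next 132 CPM), 331 CPM for Gap43 (next 105 CPM), 199.8 CPM for Isl1 (next 33.0 CPM), 165 CPM for Mapt (others at 0) and 105 CPM for Elavl3 (next 33.0 CPM).

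C2C12 showed 3 such values. Syt11 reached 23.8 CPM in 1 control library (next 9.38 CPM), and Snap25 reached 4.44 CPM in 1 control and 6.60 CPM in 1 co-culture library, with the others at 0.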

How the results depend on the processing

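Among counts of genes past the threshold, 240 of the alternative values stayed within 1.5 times the value in the report and 28 did not. C2C12 co-culture gave 106 genes without a filter and 106 with the replicate number as a block, and 29 to 83 leaving out 1 library. NSC34 co-culture gave 10 with TMM, 10 with TMMwsp, 3 without a filter, and 0 with edgeR's filterByExpr (49 genes tested, 2 with an unadjusted p under 0.05) and 0 with DESeq2 (44), and 2 to 11 leaving out 1 library. Between the lines, TMM, TMMwsp and DESeq2 gave 1362, 1385 and 2313 genes in controls and 2042, 2076 and 2928 in co-culture, and leaving out 1 library gave 167 to 243 and 412 to 930. Members past the threshold were 4 of 10 tested in controls with each of these scalings, 2 higher and 2 lower in NSC34. In co-culture with filterByExpr 2 of 2 members tested were higher, beside 330 higher and 347 lower of 1328 genes. Without a filter 10 of 26 members passed, 9 higher and 1 lower, beside 703 and 386 of 15839 genes. Leaving out 1 library gave 3 to 5 of 10 members in co-culture. The difference between lines gave 25 genes with DESeq2. The cause was not tested.

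No pairing by replicate number was seen in correlations over 200 genes. Correlations of same-numbered libraries ran from -0.37 to 0.35 in C2C12 and from -0.18 to 0.14 in NSC34, and not every library correlated best with its own number. At this depth such correlations cannot settle whether same-numbered libraries were paired. The block called 106 genes in C2C12, beside 58 without it, and 7 in NSC34, beside 6, and no member in either.

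Signs turned in 26 gene estimates on the log2 scale. With DESeq2 between lines, Gap43 gave -0.25 in controls and -0.060 in co-culture, Cplx2 1.06 and 0.44, and Rab3a 0.33 in controls. Cplx2 and Rab3a had no NSC34 read and no adjusted p there, so their positive estimates do not show a higher level in NSC34. In NSC34, Stmn3 gave 0.16 with TMM, 0.15 with TMMwsp and 0.048 with DESeq2. Leaving out 1 library, Stmn3 in NSC34 ran from -0.60 to 0.14, and between lines Syn2 ran from -3.11 to 3.60 in controls and from -2.30 to 3.46 in co-culture, Gap43 from -4.86 to 2.78 in controls, and Mapt from -4.04 to 2.91 in co-culture. The turning libraries were NSC34 control 2 and 3 for Stmn3, control 3 and co-culture 2 for Syn2, control 5 for Gap43 and co-culture 2 for Mapt. In C2C12, Cplx2 ran from -0.49 to 0.36, Mapt from -0.092 to 0.35, Gap43 from -0.35 to 0.080, Stmn2 from -0.19 to 0.028 and Vamp2 from -0.025 to 0.28, none of them called in any of these fits.

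Of 280 alternative pooled levels, 16 left the interval of the reported one. Without the deepest library Syp, Syt1 and Gap43 fell to 0 in NSC34 controls, Syn2, Stx1a, Sncb, Cplx1, Mapt and Chat fell to 0 in NSC34 co-culture, and Elavl2 fell to 0 in C2C12 co-culture. With protein-coding transcripts alone Syn2 was at 0 in both NSC34 groups and at 1.10 CPM in C2C12 co-culture, Stx1a was at 0.552 CPM there, and Syt1 and Elavl2 were at 0. At these depths a gene with no read in NSC34 may lie at up to 42.3 CPM.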

Other observations

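Long reads also place each member on a transcript form. In C2C12, 97.1% of member reads lay on protein-coding transcripts, and in NSC34 97.4% did. All 7 Syt11 reads in NSC34 lay on Syt11-202 (3575 bases), whereas C2C12 had 7 reads on Syt11-202, 11 on the longer Syt11-203 (5020 bases) and 1 on a non-coding form. Mapt reads lay mainly on Mapt-204 in both lines, 36 of 42 in C2C12 and 6 of 7 in NSC34. Stmn2 reads in C2C12 lay on Stmn2-201 in 364 of 369 cases, Rab3a reads were spread over Rab3a-201 (15), Rab3a-204 (12) and Rab3a-202 (1), and 5 of 8 Stx1a reads in C2C12 lay on a form marked for nonsense-mediated decay. The counts are too small for a test of form between the lines, and the way reads were shared among forms is not given in the sources used here.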
